A study of Mus musculus with 16 samples.

Results

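Gbp2, Gbp3, Ifitm1, Ifitm2, Ifitm3, Xaf1 and Irf1 are 7 interferon-inducible genes, taken by name out of 30102 genes measured in mouse embryonic stem cells (ESCs) with and without the chromatin protein MBD3. They were chosen by their log2 signals on these same arrays, with the differences between lines and conditions in view, so their values are a description and carry no test. Each gene is represented by the probe set of highest mean signal among those annotated with a single gene symbol, and all 7 passed the filter on dim genes. The study hybridized total RNA from 8 male ESC lines of the 129SV strain to 16 Affymetrix arrays, 1 array for each line with leukaemia inhibitory factor (LIF) and 1 after 12 days without it. EBRTcH3 was the wild type. The other 7 lines derive from it, lack all forms of endogenous MBD3 and carry a stably introduced vector. In 3 of these lines the vector encodes 1 isoform (MBD3a, MBD3b or MBD3c). In 3 more it encodes an MBD3a from which the domain that binds methylated CpG (the MBD-deleted line), the coiled coil (the coiled-coil-deleted line) or both domains (the doubly deleted line) were removed. The last line carries the vector with no insert and is called empty vector.

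MBD3 is a subunit of NuRD, a complex that remodels nucleosomes and removes acetyl groups from histones, and the study asked which part of MBD3 ESCs need in order to commit to a lineage. The lines were therefore compared in 2 classes. The retaining lines, 5 in number, have an MBD3 with a coiled coil: EBRTcH3, MBD3a, MBD3b, MBD3c and MBD-deleted. The lacking lines, 3 in number, have none: empty vector, coiled-coil-deleted and doubly deleted. Nothing in the labels says that a line was cultured more than once per condition, so the lines are the replicates and any p-value measures the spread between these lines. A rescued line may also be a single clone, which the labels do not state. The titles of the samples are numbered in 2 separate runs, the first with EBRTcH3, MBD3a, MBD3b, MBD3c and empty vector, the second with the 3 deletion mutants; what the runs stand for is not stated.

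Interferons are secreted cytokines that bind surface receptors and activate JAK kinases and STAT transcription factors, which enter the nucleus and switch on a large set of genes against viruses and other intracellular pathogens. Type I interferons act through a complex that holds STAT2 and IRF9 on a DNA element called ISRE, and interferon gamma acts on an element called GAS; IRF1 is itself induced through GAS and then binds ISRE-like elements. Undifferentiated mouse ESCs are known for a weak interferon response that strengthens as they differentiate. LIF signals through the related STAT3, which recognises GAS-like elements too.

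The stem cell label was checked against its markers: the mean log2 signal of 9 ESC markers, among them Pou5f1, Sox2 and Nanog, was 10.65 to 11.50 on every array. Of the 9, 6 fell and 1 rose on withdrawal in the retaining lines (Zfp42 with -1.27, Nanog with -1.16 and Sox2 with -0.94; limma adjusted p = 2.01e-05, 1.41e-05 and 0.000395), and 1 fell in the lacking lines. Mbd3 itself, read by a probe set that may also detect the transgenes, had log2 signals of 7.00 and 7.45 in the empty vector line and 8.45 to 9.59 in all other lines. Leukocytes express many of the 7 genes. Among 10 leukocyte markers, Ptprc, the pan-leukocyte antigen CD45, stayed at 2.86 to 3.32 on all arrays, while Laptm5 and Cd68 reached 11.66 and 8.73. The mean of that list was 5.60 to 6.04. In bulk RNA, fewer cells of a type and less RNA per cell cannot be told apart.

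The promoters of the members are shown because the ISRE and GAS elements are the point at which interferon signalling meets these genes. The stretches come from RefSeq promoter windows of assembly GRCm38.p6, which run from 250 bases before to 50 bases after an annotated start; all 7 members matched by symbol, and Gbp3 and Irf1 have a second window without a match to any motif searched, which is not printed. Each stretch begins 120 bases before the start, is written 5′ to 3′ on the strand of the gene, and ends at the start or at the last match after it. Capitals mark matches to ISRE (GAAA and GAAA separated by NN), GAS (TTC and GAA separated by NNN) or, in Xaf1, a shorter ISRE (GAAA and GAAA separated by a single N), a motif added after the sequences were read. Both strands were searched, and overlapping matches run together.
Irf1, chr11:53769894-53770013, plus strand: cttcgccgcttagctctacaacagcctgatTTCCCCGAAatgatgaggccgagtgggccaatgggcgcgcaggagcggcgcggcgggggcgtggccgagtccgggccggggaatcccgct
Gbp2, chr3:142620543-142620662, plus strand: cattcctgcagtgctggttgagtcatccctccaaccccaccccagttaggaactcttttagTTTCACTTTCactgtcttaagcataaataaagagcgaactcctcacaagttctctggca
Gbp3, chr3:142559924-142560043, plus strand: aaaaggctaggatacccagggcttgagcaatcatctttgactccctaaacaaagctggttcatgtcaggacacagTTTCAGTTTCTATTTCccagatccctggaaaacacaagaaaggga
Ifitm1, chr7:140967956-140968075, plus strand: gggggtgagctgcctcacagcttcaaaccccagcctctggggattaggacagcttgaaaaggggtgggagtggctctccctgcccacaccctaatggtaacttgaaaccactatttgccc
Ifitm2, chr7:140955962-140956081, minus strand: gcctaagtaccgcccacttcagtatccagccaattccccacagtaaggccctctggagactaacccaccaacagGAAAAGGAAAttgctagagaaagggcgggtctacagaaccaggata
Ifitm3, chr7:141010716-141010864, minus strand: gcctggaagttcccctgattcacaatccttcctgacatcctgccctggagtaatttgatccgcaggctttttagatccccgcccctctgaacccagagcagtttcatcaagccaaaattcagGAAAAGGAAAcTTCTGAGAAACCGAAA
Xaf1, chr11:72301509-72301647, plus strand: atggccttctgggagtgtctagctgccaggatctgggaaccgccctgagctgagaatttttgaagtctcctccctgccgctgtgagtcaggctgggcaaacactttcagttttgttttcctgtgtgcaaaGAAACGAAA

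ISRE was found in Gbp2, Gbp3, Ifitm2 and Ifitm3, against 3.44% of all 32851 windows of the same length. Counted by gene, the shares were 3.99% for ISRE and 9.55% for GAS. The members were named as interferon-inducible genes, so the comparison with all windows is a description. With the start base counted as 0, Gbp3 held 2 overlapping matches at bases -45 to -30, and Gbp2 held 1 match at bases -59 to -50. GAS, present in 8.3% of windows, was found in Ifitm3 and Irf1; in Irf1 it covers bases -90 to -82. In Ifitm3 the GAS match (bases 13 to 21) overlaps the second of 2 ISRE matches by 3 bases, and in Xaf1 the spacer-1 form (3.17% of windows) covers bases 10 to 18. No match of any of these motifs was in the Ifitm1 window. That window and the Ifitm2 window lie inside the genes as located below. The bases around the 5′ ends of those locations (140967429 for Ifitm1, 140959686 for Ifitm2) were not searched. A match is a run of letters and was not tested as a binding site.

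**Figure D1:**
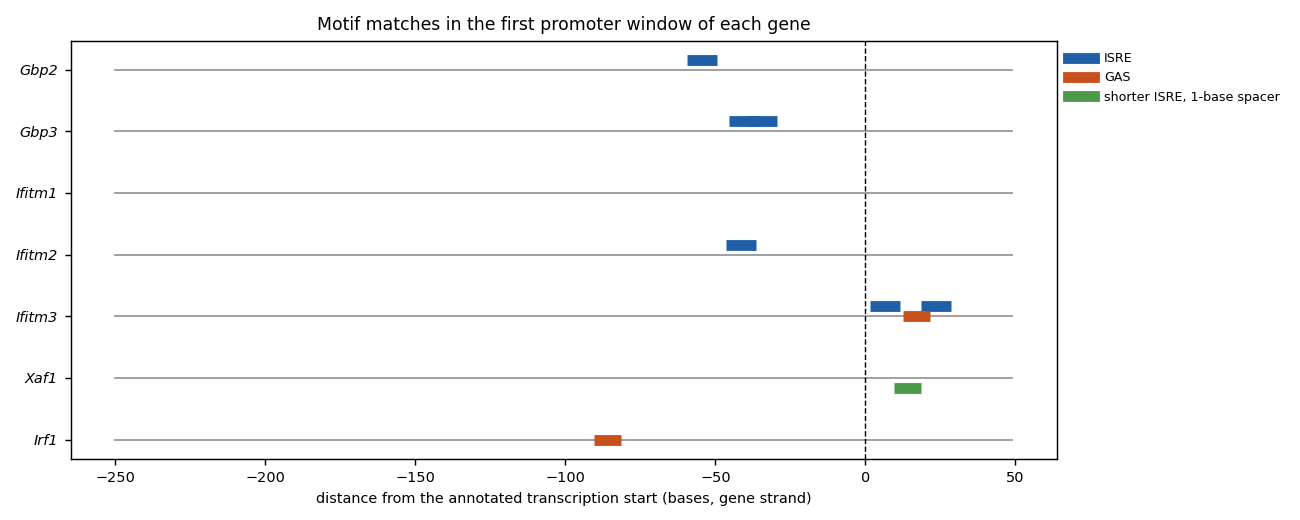
Motif matches in the first RefSeq promoter window of each gene. The x axis is the distance in bases from the annotated start (dashed line, base 0), and coloured bars are matches to ISRE, GAS and the ISRE with a 1-base spacer; the matches of Gbp2, Gbp3, Ifitm2 and Irf1 lie before the start and those of Ifitm3 and Xaf1 after it.

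Irf1, the interferon-induced transcription factor (chr11:53770014-53778374), had log2 signals with LIF of 7.90, 7.77, 7.55, 7.50 and 7.70 in the retaining lines, given here and below in the order EBRTcH3, MBD3a, MBD3b, MBD3c and MBD-deleted. In the lacking lines, in the order empty vector, coiled-coil-deleted and doubly deleted, it read 8.64, 8.40 and 8.84, so with LIF every lacking line lay above every retaining line, by 0.94 on average (pooled SD 0.18, n = 5 and 3). Without LIF the retaining lines read 9.47, 9.08, 9.04, 9.24 and 8.44, and the lacking lines 9.07, 9.24 and 9.02. There the classes overlapped and differed by 0.06, with the MBD-deleted line lowest. The response, the signal without LIF minus that with it, was 1.37 ± 0.38 (SD, n = 5) in the retaining lines and 0.48 ± 0.33 (SD, n = 3) in the lacking lines, with overlapping ranges. A second probe set of Irf1 was dimmer (4.93 to 5.43) and was not used. With LIF it read 4.93 to 5.35 in the retaining and 4.99 to 5.35 in the lacking lines. Without LIF it read 4.99 to 5.37 and 5.17 to 5.43, so it did not separate the classes in either condition. On withdrawal it went from 5.35 to 4.99 in the MBD-deleted line and from 5.35 to 5.17 in the coiled-coil-deleted line. With the mean of both probe sets, the retaining response was 0.72, the lacking response 0.30, and the class difference with LIF 0.54.

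Gbp2 encodes a guanylate-binding GTPase that helps to attack vacuoles of intracellular pathogens, and it lies at chr3:142620663-142638008. With LIF its log2 signal was 4.37, 4.28, 4.17, 4.22 and 4.18 in the retaining lines, close to the filter on dim genes, which was 4.24 to 4.38 depending on the array. The lacking lines were slightly above them, at 4.47, 5.00 and 4.97. After 12 days without LIF the retaining lines read 9.88, 9.16, 9.10, 9.67 and 7.75, while the lacking lines read 5.68, 6.45 and 5.55. All 5 retaining lines then lay above all 3 lacking lines. Gbp2 had the largest response among the 7 genes, 4.87 ± 0.78 (SD, n = 5), a 29.2-fold higher signal, in the retaining lines; this fold is taken against signals at the level of the filter. In the lacking lines its response was 1.08 ± 0.45 (SD, n = 3), 2.11-fold, and the individual responses of the classes did not overlap. The MBD-deleted line, with a response of 3.57, lay between the other retaining lines and the lacking lines.

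Gbp3, a paralogue at chr3:142560016-142573213, showed a similar pattern. With LIF it read 4.07, 4.27, 4.26, 4.11 and 4.52 in the retaining lines and 4.17, 4.36 and 4.43 in the lacking lines, and the classes overlapped at about the filter level. Without LIF it read 6.67, 5.97, 5.76, 6.28 and 4.82 in the retaining lines and 4.64, 4.63 and 4.44 in the lacking lines. The classes no longer overlapped, and the MBD-deleted line, at 4.82, lay close to the highest lacking line. The response was 1.65 ± 0.87 (SD, n = 5) against 0.25 ± 0.23 (SD, n = 3), and the individual responses of the classes overlapped. Gbp2 and Gbp3 are similar in sequence, so part of either signal may come from the other.

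Ifitm3 encodes a small membrane protein that restricts the entry of viruses and is also known as Fragilis, a marker of the cells that precede germ cells; it lies at chr7:141009590-141010744. With LIF it read 9.73, 9.84, 9.89, 9.19 and 10.15 in the retaining lines and 7.31, 7.81 and 8.41 in the lacking lines. Without LIF it read 11.38, 11.22, 11.19, 10.89 and 10.55 against 8.88, 8.75 and 8.71. Every retaining line was above every lacking line in both conditions. The lacking minus retaining difference was -1.92 (3.78-fold, pooled SD 0.43) with LIF and -2.27 (4.81-fold, pooled SD 0.27) without it. Withdrawal was accompanied by a higher signal in 8 of 8 lines. The retaining response was 1.29 ± 0.52 (SD, n = 5) and the lacking response 0.94 ± 0.64 (SD, n = 3), with overlapping ranges. Within the first run of title numbers the mean response was 1.51 (4 retaining lines) and 1.57 (empty vector). Within the second it was 0.40 (MBD-deleted) and 0.62 (2 lacking lines). The lower lacking mean thus did not hold within either run, where 1 class has a single line.

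Ifitm1 (chr7:140967429-140969827) and Ifitm2 (chr7:140954837-140959686) encode related proteins and were bright on all arrays. Ifitm1 read 10.94 to 11.64 with LIF and 11.43 to 11.86 without it in the retaining lines; the lacking lines read 10.19, 10.02 and 11.18 with LIF and 10.89, 10.55 and 10.42 without it. The doubly deleted line, at 11.18, lay among the retaining lines with LIF and below all of them without it. Without LIF the classes did not overlap, with a lacking minus retaining difference of -1.07 (pooled SD 0.19). For Ifitm2 the retaining lines read 10.56 to 11.02 and 10.76 to 11.10, and the lacking lines 10.00 to 10.64 and 10.17 to 10.32, with overlap only with LIF. The Ifitm genes are close paralogues, so their probe sets may share signal.

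Xaf1 is known as an antagonist of XIAP, the inhibitor of caspases, and lies at chr11:72301461-72313733. It behaved in the opposite way to Ifitm3. With LIF it read 7.54, 7.98, 7.56, 7.75 and 7.89 in the retaining lines and 9.95, 9.87 and 10.22 in the lacking lines. Without LIF it read 7.13, 6.54, 6.36, 6.37 and 6.26 against 9.02, 8.92 and 8.85. The lacking lines were thus higher by 2.27 (4.82-fold, pooled SD 0.19) with LIF and by 2.40 (5.27-fold, pooled SD 0.29) without it, with no overlap in either condition. The signal was lower without LIF in 8 of 8 lines, with a response of -1.21 ± 0.47 (SD, n = 5) in the retaining and -1.08 ± 0.25 (SD, n = 3) in the lacking lines.

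**Figure D2:**
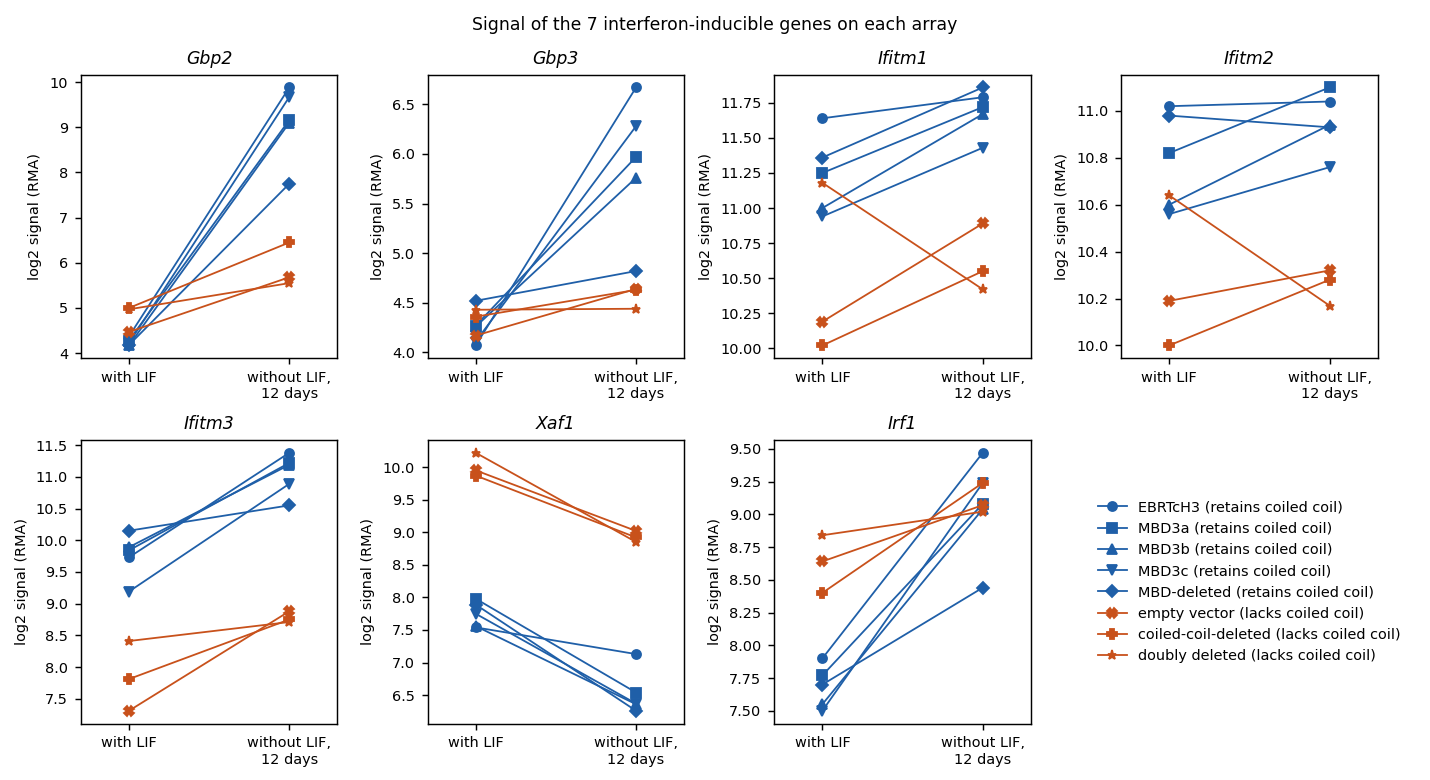
Log2 signal (y axis) of each gene with LIF and after 12 days without it (x axis), 1 line per ESC line, blue for the 5 retaining and orange for the 3 lacking lines; y axes differ between panels. Gbp2 climbs to 7.75 or more in all retaining lines and stays at 6.45 or less in all lacking lines, and Xaf1 is higher in the lacking lines in both conditions.

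Set side by side, the genes fell into different orders across the 4 groups. For Gbp2 the order of means, from high to low, was retaining lines without LIF (9.11), lacking without (5.89), lacking with (4.81) and retaining with LIF (4.24), and no neighbours in that order overlapped. Gbp3 had the same order with means of 5.90, 4.57, 4.32 and 4.25, but the last pair overlapped. Ifitm3 went from retaining without LIF (11.05) through retaining with (9.76) and lacking without (8.78) to lacking with LIF (7.84), and Xaf1 from lacking with LIF (10.01) through lacking without (8.93) and retaining with (7.74) to retaining without (6.53); in neither did neighbours overlap. For Irf1 the means were 9.11 in the lacking lines without LIF, 9.05 in the retaining lines without it, 8.63 in the lacking and 7.68 in the retaining lines with LIF, and only the last step was free of overlap. Ifitm1 and Ifitm2 were ordered by class first, with small steps between conditions; in Ifitm2 every neighbouring pair overlapped, and in Ifitm1 all but retaining lines with LIF (11.24) and lacking lines without it (10.62).

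With LIF, 1 of the 7 genes was lower in every lacking line than in any retaining line (Ifitm3; 8.43% of all 22872 genes tested) and 3 were higher (Gbp2, Xaf1 and Irf1; 11.8%). Without LIF, 5 were lower (Gbp2, Gbp3, Ifitm1, Ifitm2 and Ifitm3; 14.7%) and 1 was higher (Xaf1; 11.9%). On withdrawal, 5 were higher in every retaining line (23.8%) and 4 in every lacking line (17.5%), and Xaf1 was lower in every line of both classes, as were 15.2% and 17.3% of genes. Gbp2 was the only 1 of the 7 with a response in every lacking line below that of every retaining line (11.5%). The genes were picked for such patterns, so nothing is read from these counts.

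**Figure D3:**
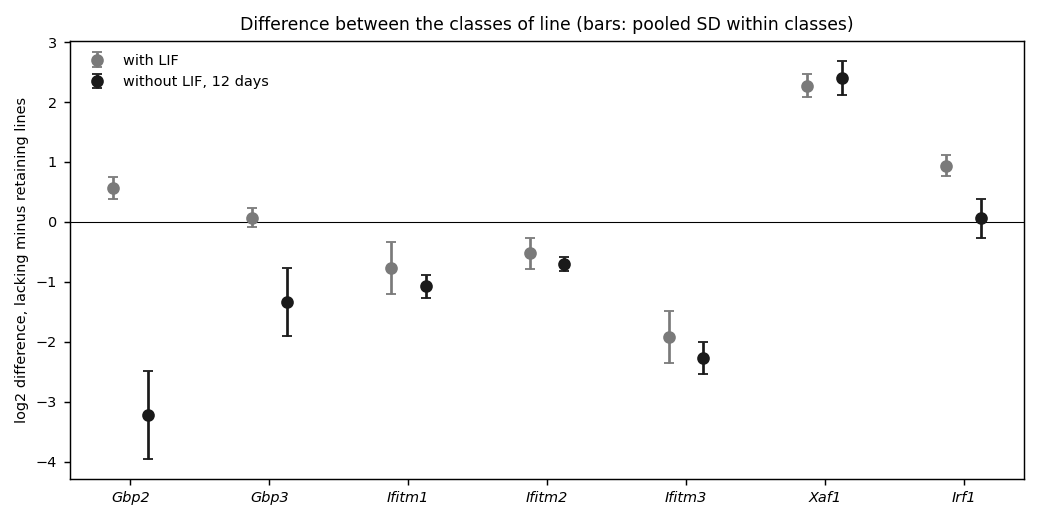
Mean log2 signal of the 3 lacking lines minus that of the 5 retaining lines for each gene (y axis), with LIF (grey) and after 12 days without it (black); bars are the pooled SD within the classes. Ifitm3 stays near -2 and Xaf1 above 2 in both conditions, while Gbp2 goes from 0.57 to -3.22.

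The runs of title numbers split the lines unevenly, with 4 retaining lines and 1 lacking line in the first and 1 and 2 in the second, so class differences were also taken within each. For Xaf1 they were 2.24 and 2.16 with LIF and 2.42 and 2.62 without it. For Ifitm3 they were -2.35 and -2.04 with LIF and -2.29 and -1.82 without it. Both genes thus kept the direction and about the size of their class difference within each run. For Gbp2 without LIF the difference was -3.77 in the first run and -1.75 in the second, and for Gbp3 -1.53 and -0.29; the only retaining line of the second run is the MBD-deleted line. For Irf1 with LIF it was 0.96 and 0.92.

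Over the 16 arrays, which share lines and conditions, the log2 signals of Gbp2 and Gbp3 correlated at a Pearson r of 0.95, those of Ifitm1 and Ifitm2 at 0.96, and those of Ifitm3 and Xaf1 at -0.93. Irf1 ran with Gbp2 (0.75) and not with Xaf1 (-0.01) or Ifitm3 (0.14). The genes whose signals were most like Gbp2 over the 16 arrays were Arpc2, Flt1, Dsp, Specc1 and Slc25a24, each with an r of 0.99. For Xaf1 they were Arl14epl (0.98), Plxdc1 (0.97), Fmnl1, Myo1g and Piwil4 (0.96 each), and for Ifitm3 they were Zwint, Mapk12 and Setd7 (0.96 each), Tmem123 and Rgmb (0.95 each). None of these genes is on the lists of interferon pathway genes used below.

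Among genomic neighbours, Gbp7 lies beside Gbp3 and also rose on withdrawal in the retaining lines, by 2.20 ± 0.21 (SE; limma adjusted p = 1.29e-05). Around the Ifitm genes, Nlrp6 and Ifitm5 did not pass in any comparison, with differences of -0.12 to 0.13. Pgghg rose by 0.23 in the retaining lines (limma adjusted p = 0.0264), a call lost without EBRTcH3 (0.0755), MBD3a (0.0696), MBD3b (0.0521) or MBD3c (0.07), and B4galnt4 passed in no comparison. Gbp5 and Gbp2b, also at the Gbp locus, are not analysed here.

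The wider pathway was described with 153 listed genes in 11 lists, of which 133 were measured and 119 tested, leaving out the 7 members. These lists were chosen with earlier results of these data known, so their shares beside those of all genes are a description. LIF withdrawal in the retaining lines raised 59 of the 119 and lowered 9, beside 21.3% and 14.5% of all genes tested (median difference 0.28, against 0.04 for all genes). The counts of single lists for this comparison, given below, stand beside the same shares. Ifih1, Rtp4, Samd9l and Tlr3 were above the filter only on arrays of retaining lines without LIF and are among the 59; without the filter, 56 of the 133 measured genes rose and 7 fell (median 0.25). Of the rises of genes covered by the naming rule, 11 (Cxcl10, Gbp7, Gbp11, Ifih1, Ifit1, Igtp, Irf2, Irgm1, Isg15, Samd9l and Tlr3) started from a mean signal at or below the upper filter level of 4.38 in the retaining lines with LIF, so the size of these rises, and of their differences between classes, is taken against signals at the filter or below it. In the lacking lines 2 rose and 1 fell, beside 1.71% and 1.22% of all genes. Leaving out a line moved these 3 calls to 0 (empty vector; 11 at an unadjusted p under 0.05), 1 (coiled-coil-deleted), 5 (EBRTcH3) or 9 (MBD-deleted). A difference of response between the classes was called for 30 genes, 28 of them with a lower response in the lacking lines (7.9% of all genes) and 2 with a higher one (4.17%); without the filter 24 of the 133 were called, each with a lower response. The 30 became 13 when the coiled-coil-deleted line was left out, 15 when the doubly deleted line was, and 46 when the MBD-deleted line was. Within the first run of title numbers, 75 pathway genes passed for withdrawal in the retaining lines, 0 in the lacking line and 14 for the difference, and within the second run, with 1 retaining line, 0 passed in any of the 3. A class with 1 line in a run shows no spread of its own there and is assumed to vary like the other class. At an unadjusted p under 0.05, limma gave 27 in the lacking line of the first run, and 27, 12 and 18 in the second run for the retaining line, the lacking lines and the difference.

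**Figure D4:**
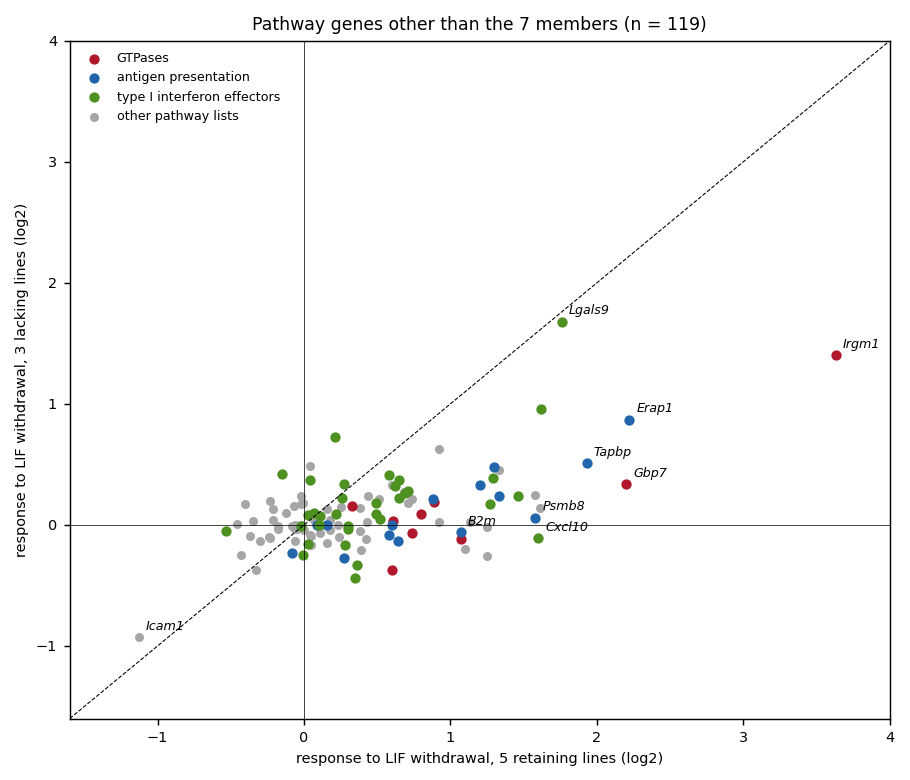
Response to LIF withdrawal (log2, without minus with LIF) of the 119 tested pathway genes other than the 7 members, as the mean of the 5 retaining lines (x axis) and of the 3 lacking lines (y axis); colours mark 3 of the lists and the dashed diagonal marks equal responses. Irgm1, Gbp7, Erap1 and Tapbp lie far to the right and below the diagonal, and Lgals9 lies close to it.

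Interferon ligands lay on both sides of the filter: the 12 genes measured had log2 signals of 2.13 to 6.49, and 0 of 7 tested passed in any comparison (limma). At an unadjusted p under 0.05 there was 1, between the classes without LIF, and 0 in the other comparisons. Of the 6 receptor genes, 5 rose in the retaining lines, with Il10rb, a shared chain of the interleukin-10 and interferon lambda receptors, rising by 1.25 ± 0.15 (SE; limma adjusted p = 8.14e-05). Its response differed by -1.51 in the lacking lines (limma adjusted p = 0.00322). Ifngr1, the ligand-binding chain for interferon gamma, rose by 0.71 ± 0.11 (SE) and Ifngr2, its partner chain, by 0.92 ± 0.13 (SE) in the retaining lines (limma adjusted p = 0.000379 and 0.0002). In the lacking lines Ifngr1 and Ifngr2 differed by 0.18 and 0.63, without a call (limma adjusted p = 0.615 and 0.0713). In the signalling list 4 of 10 rose and 3 fell. Usp18, a brake on type I receptor signalling, rose by 1.13 ± 0.25 (SE, limma adjusted p = 0.00442) in the retaining lines. Its responses there ran from 0.08 in the MBD-deleted line to 2.45 in EBRTcH3. The difference of its response between the classes was not called (limma adjusted p = 0.108). In the retaining lines Irf9 fell by 0.43 (limma adjusted p = 0.012), and Stat2 differed by -0.08 (limma adjusted p = 0.416).

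Among 8 other IRF genes, 2 rose in the retaining lines. Irf2, a repressor and competitor of IRF1, rose by 1.58 ± 0.17 (SE; limma adjusted p = 3.91e-05). Of 11 genes of nucleic acid sensing, 5 rose and 2 fell in the retaining lines (5 and 1 without the filter). Ifih1 and Tlr3 are among the 5 and were above the filter only on arrays of retaining lines without LIF. Ddx58, the RNA sensor RIG-I, rose by 1.10 ± 0.11 (SE; limma adjusted p = 1.93e-05), and its response differed by -1.30 in the lacking lines (limma adjusted p = 0.00118). Sting1, the adaptor of cytosolic DNA sensing, was instead higher in the lacking lines, by 1.17 ± 0.15 (SE) with LIF and 1.36 ± 0.22 (SE) without it (limma adjusted p = 0.000589 and 0.00168). Within the first run of title numbers these were 1.06 and 1.40 (limma adjusted p = 0.0722 and 0.0518), and within the second 1.35 and 1.62 (0.23 and 0.149).

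The GTPases come closest to Gbp2. All 9 that could be tested rose in the retaining lines (8 of the 12 measured without the filter), with a list median of 0.80. Irgm1, an immunity-related GTPase that regulates autophagy, read 4.02, 4.43, 4.20, 3.92 and 4.09 with LIF and 8.43, 7.76, 7.71, 8.11 and 6.81 without it in the retaining lines. In the lacking lines it read 5.58, 5.98 and 5.97 with LIF and 7.22, 7.32 and 7.20 without. It was thus already higher in every lacking line with LIF, by 1.71 ± 0.14 (SE; limma adjusted p = 4.23e-05), as Gbp2 and Irf1 were. Its rise was 3.63 ± 0.20 (SE; limma adjusted p = 3.13e-07) in the retaining lines and 1.40 ± 0.26 (SE; limma adjusted p = 0.0166) in the lacking lines. The latter call was lost on leaving out any of the lacking lines (limma adjusted p = 0.133 without empty vector, 0.0754 without the coiled-coil-deleted and 0.0725 without the doubly deleted line). Gbp7 rose by 2.20 in the retaining lines, and its response differed by -1.86 in the lacking lines (limma adjusted p = 0.00533).

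Of 34 tested effectors of type I interferon, 18 rose and 1 fell in the retaining lines. Without the filter, 17 of the 39 measured rose and 1 fell. Rtp4 and Samd9l are among the 18 and were above the filter only on arrays of retaining lines without LIF. Cxcl10, a chemokine that attracts T cells, rose by 1.60 ± 0.16 (SE; limma adjusted p = 2.19e-05), and Bst2, the protein tetherin that holds budding virus at the cell surface, by 1.46; the lacking minus retaining difference of their responses was -1.71 and -1.22 (limma adjusted p = 0.00222 and 0.000752). Lgals9, a galectin, rose by 1.76 ± 0.26 (SE) in the retaining and 1.68 ± 0.34 (SE) in the lacking lines (limma adjusted p = 0.00035 and 0.0244), the latter lost without empty vector (limma adjusted p = 0.183) or without the coiled-coil-deleted line (limma adjusted p = 0.092). Isg15, a ubiquitin-like modifier and a classic marker of type I interferon, rose by 0.65 ± 0.23 (SE; limma adjusted p = 0.0448) in the retaining lines, a call lost without EBRTcH3 (limma adjusted p = 0.165), MBD3a (0.103), MBD3b (0.155) or the coiled-coil-deleted line (0.0594). Ifit1, which binds foreign RNA, rose by 0.36 ± 0.10 (SE; limma adjusted p = 0.0138). Rsad2, the antiviral enzyme viperin, differed between the classes in both conditions and was 1.60 ± 0.19 (SE) higher in the lacking lines with LIF and 1.67 ± 0.17 (SE) without it (limma adjusted p = 0.000435 and 0.000116).

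Antigen presentation genes rose in the retaining lines, 11 of 15 (list median 0.88), while 0 of 15 passed in the lacking lines (limma; 2 at an unadjusted p under 0.05). B2m, the light chain of MHC class I, read 8.78, 9.21, 8.33, 8.50 and 7.92 with LIF and 9.85, 9.76, 9.50, 9.69 and 9.30 without it in the retaining lines, against 7.38, 8.01 and 7.95 and then 7.63, 8.08 and 7.46 in the lacking lines. It rose by 1.07 ± 0.13 (SE; limma adjusted p = 7.97e-05) in the retaining lines. Without LIF every lacking line was below every retaining line, with a difference of -1.90 ± 0.16 (SE; limma adjusted p = 4.56e-05). Erap1, which trims peptides for MHC class I, rose by 2.22 ± 0.17 (SE, limma adjusted p = 3.54e-06) in the retaining lines. In the lacking lines its responses were 0.79, 0.86 and 0.95, a rise that did not pass (limma adjusted p = 0.0675). Psmb8, a subunit of the immunoproteasome, rose by 1.58 ± 0.20 (SE; limma adjusted p = 0.00012), and its response differed by -1.53 in the lacking lines (limma adjusted p = 0.0132), a call lost without the coiled-coil-deleted (limma adjusted p = 0.0501) or doubly deleted line (0.0648). H2-K1, an MHC class I heavy chain, rose by 0.64 ± 0.11 (SE; limma adjusted p = 0.000689).

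**Figure D5:**
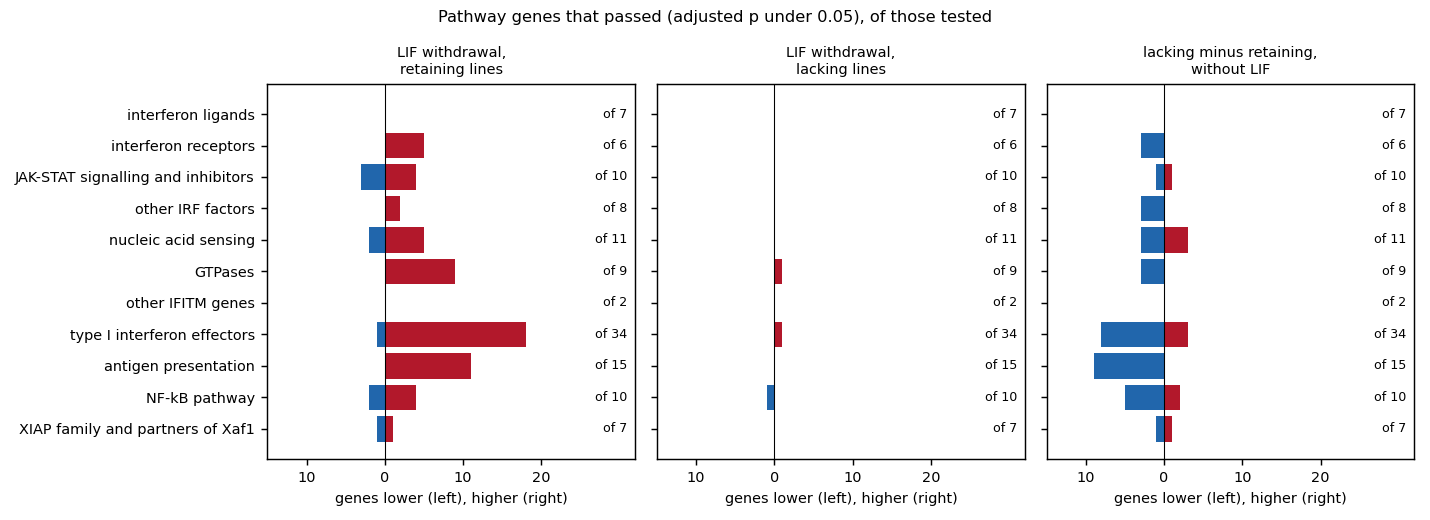
Number of tested genes of each pathway list that passed at an adjusted p under 0.05 as higher (red, right) or lower (blue, left), with the number tested at the right edge, for LIF withdrawal in the retaining and in the lacking lines and for the class difference without LIF. The retaining lines show 59 higher and 9 lower genes over all lists and the lacking lines 2 and 1.

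In the NF-kB list, 4 of 10 rose and 2 fell in the retaining lines. Tnfaip3, the enzyme A20 that restrains NF-kB, rose by 1.61 ± 0.14 (SE; limma adjusted p = 7.72e-06), while Icam1, an adhesion molecule, fell by 1.13 (limma adjusted p = 9.77e-05). Of the 7 genes of the XIAP family and its partners, which bear on Xaf1, 1 rose (Htra2, a mitochondrial protease that binds XIAP, by 0.68 ± 0.10, SE; limma adjusted p = 0.000424) and 1 fell in the retaining lines. The latter was Birc2, an inhibitor of apoptosis, with -0.30 ± 0.11 (SE; limma adjusted p = 0.0438). That call was lost on leaving out EBRTcH3, MBD3a, MBD3b, MBD3c, the coiled-coil-deleted or the doubly deleted line (limma adjusted p from 0.0528 to 0.154).

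Between the classes, 16 pathway genes were higher and 7 lower in the lacking lines with LIF (7.65% and 6.48% of all genes tested), and 10 were higher and 36 lower without LIF (8.55% and 12.4%). The 46 became 30 when the empty vector line was left out and 29 when the doubly deleted line was. Ifih1, Samd9l and Tlr3 are among the 36 and were above the filter only on arrays of retaining lines without LIF. They are high in that group, so their calls support nothing here. Without the filter, 10 of the 133 measured genes were higher and 33 lower in the lacking lines without LIF. Within the first run of title numbers 4 passed with LIF and 21 without, and within the second 0 in either condition (limma; 19 and 37 at an unadjusted p under 0.05). Irf2bp2, a partner of IRF2, was lower in the lacking lines in both conditions, with differences of -1.08 and -0.63 (limma adjusted p = 0.000564 and 0.00158). Differentiation markers moved with these results: the mean log2 signal of 6 trophoblast markers, among them Cdx2 and Krt18, was 5.80 to 6.31 with LIF and 8.17 to 9.76 without it in the retaining lines. In the lacking lines it was 6.40 to 6.90 with LIF and 7.28 to 7.64 without it. Of these 6 markers, 5 rose in the retaining and 2 in the lacking lines. The exception was Elf5, which rose by 1.32 in the lacking lines (limma adjusted p = 0.000396). In the retaining lines it differed by 0.24, without a call. Of 6 tested endoderm markers, 3 rose and 1 fell in the retaining lines, and 1 rose in the lacking lines. In the retaining lines Dab2 rose by 2.70, Lamb1 by 1.46 and Gata6 by 0.68 (limma adjusted p = 1.27e-07, 3.13e-07 and 0.0061). Gata4 fell there (-0.48, limma adjusted p = 0.00216), and Sox17, Afp and Ttr differed by only 0.11, 0.03 and 0.10. Of 5 tested fibroblast markers, 3 rose in the retaining lines, Dcn by 1.05 and Col1a1 by 0.77 (limma adjusted p = 5.08e-05 and 0.000487). There Col1a2, Thy1 and Lum differed by 0.19, 0.11 and -0.39, without a call. Lum was dim, at 2.47 to 3.55 on all arrays. With LIF, Thy1 differed by 1.33 between the classes and was higher in the lacking lines. The mean of the endoderm list (7 measured) was 5.71 to 5.85 with LIF and 6.28 to 6.75 without it in the retaining lines, and 5.64 to 5.94 and 5.96 to 5.97 in the lacking lines. For the fibroblast list (6 measured) these were 5.32 to 5.42 and 5.55 to 5.80, and 5.59 to 5.84 and 5.58 to 5.67. Of 7 primordial germ cell markers, 2 rose and 3 fell in the retaining lines (limma), and 1 rose in the lacking lines. In the retaining lines Dppa3 and Dnd1 differed by 1.57 and 0.79, and Prdm14, Tfap2c and Prdm1 by -1.53, -0.85 and -0.34. The part of these markers in the results above was not tested.

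Among the pathway genes with a RefSeq promoter, 17 of 48 that rose in the retaining lines held an ISRE match, against 11 of 50 of the other tested genes. For GAS the counts were 14 of 48 and 8 of 50. Many of these genes were listed because they are interferon targets, so the shares are a description of the lists.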

How the data were processed

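The 16 arrays, labelled by an Affymetrix whole-transcript protocol, each hold the total RNA of 1 line in 1 condition. The authors deposited log2 values, made by RMA in affy, per the submitters' processing notes, with versions not given in the sources used here. Among 65770 probe sets, 2146 with several gene symbols and 33185 with none were left out, and 30439 had a single symbol. The 27 probe sets without values, also left out, are counted within these groups. Probe sets with a single symbol gave 30102 genes, the brightest probe set standing for each. Symbols were updated through Entrez identifiers of GRCm38.p6. A gene was tested if above the 40th percentile of an array on at least 3 arrays (22872 genes). All of these entered each limma fit (limma 3.58.1, R 4.3.3), and calls were made where the Benjamini-Hochberg adjusted p was under 0.05. Responses to LIF withdrawal came from 1 fit of all arrays with line as a block. The labels give this pairing, as both arrays of a line are the same cell line; their deviations from the group means correlated at -0.052 to 0.28. Class differences used the 8 arrays of a condition. The fits were tested on simulated data. The rule for named pathway genes took, per list and comparison, up to 3 called genes with the largest difference, plus a fixed set that included Stat2, Irf9, Isg15, Ifit1, Psmb8, B2m and H2-K1; the text names a part of them. The 5 neighbours in pattern are those of highest Pearson r, predicted genes aside. The members and lists were chosen with earlier results of these data known. Alternatives changed the filter, normalization, probe set rule, array weights, block, title run and lines included; the within-run values were added after seeing the data. No depth applies to arrays, and the number of lines limits the precision.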

Additional observations from a re-analysis of the deposited data

Results flagged for a closer look

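Of the 54 pathway genes covered by the naming rule, 22 responded to withdrawal of LIF differently in the 2 classes of line (limma, adjusted p under 0.05), each with a lower response in the lacking lines. The rule takes called genes with large differences, so this count is set in part by the choice; over all 119 tested pathway genes 28 had a lower and 2 a higher response, beside 7.9% and 4.17% of all genes tested. Ifih1 and Samd9l passed the filter only through the retaining lines without LIF, the group in which they are high, so their calls support nothing here. Without the filter the calls of Nfkbie and Rela were lost (limma adjusted p = 0.0569 and 0.0528). Among the GTPases the lacking minus retaining differences were -2.23 for Irgm1, -1.86 for Gbp7, -1.20 for Igtp and -0.98 for Irgm2. In antigen presentation they were -1.53 for Psmb8, -1.42 for Tapbp, -1.36 for Erap1, -1.13 for B2m and -0.77 for H2-K1. Among effectors they were -1.71 for Cxcl10, -1.22 for Bst2, -1.10 for Samd9l and -0.69 for Ifit1, and among sensors -1.30 for Ddx58, -1.27 for Ifih1 and -0.89 for Ikbke. The receptors Il10rb and Ifnar2 had -1.51 and -0.60, and Irf2 had -1.33. In the NF-kB list, Tnfaip3 had -1.47, Nfkbie -0.54 and Rela -0.53. Of the 22 calls, 12 were lost on leaving out at least 1 line (limma adjusted p up to 0.189). Igtp, Irgm2, Tapbp and Rela each lost theirs without any 1 of 6 lines (all but EBRTcH3 and MBD-deleted), and Nfkbie without any 1 of 6 (all but MBD-deleted and empty vector). H2-K1, Ifih1 and Psmb8 lost theirs without the coiled-coil-deleted or the doubly deleted line, Ifit1 without any of the 3 lacking lines, and Samd9l without the coiled-coil-deleted line or empty vector. Ikbke lost its call without the coiled-coil-deleted line, and Irf2 without the doubly deleted line.

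In 4 of 122 groups of 5 arrays examined, a single line stood apart from the others by Dixon's criterion, which chance alone meets in about 1 group in 20. Ddx58 read 8.65 in EBRTcH3 without LIF, against 7.83 to 7.98 in the other retaining lines. Ikbke without LIF and Jak1 with LIF were lowest in the MBD-deleted line, at 5.94 (others 6.42 to 6.59) and 8.18 (others 8.49 to 8.60). Tnfaip3 with LIF was highest in MBD3a, at 5.71 (others 5.43 to 5.51).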

How the results depend on the processing

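Counts of called pathway genes stayed within 1.5 times under another filter, quantile normalization, centring each array on its median and averaging probe sets. Array weights gave 8 for withdrawal in the lacking lines (3 as reported) and 49 for the difference of response (30 as reported), and the title run as a covariate gave 10 and 19. Within the first run of title numbers, the counts were 0 for the lacking line, 14 for the difference, 4 for the classes with LIF (23 as reported) and 21 without LIF (46 as reported); within the second they were 0 in all 5 comparisons. Leaving out each line in turn gave 60 to 74 calls for the retaining lines (68 as reported), 0 to 9 for the lacking lines, 13 to 46 for the difference, 16 to 29 with LIF and 29 to 54 without. Without the replicate block for the line, the responses gave 65, 3 and 29 calls, and with a replicate block the class fits gave 26 and 52. Within the second run, the retaining response turned to 0.18 for Birc2, -0.06 for Irgm2 and -0.08 for Parp12, and the class difference of Tlr3 without LIF to 0.08 (limma adjusted p = 0.599, 0.91, 0.864 and 0.828). The causes were not tested. Among the 7 genes, the sign of a difference turned under some setting for Gbp3 (classes with LIF), Ifitm1 (lacking response and difference), Ifitm2 (both responses and difference), Ifitm3 (difference) and Irf1 (classes without LIF). Averaging the probe sets of Irf1 moved its retaining response from 1.37 to 0.72. Centring moved the median response of all genes in the retaining lines from 0.04 to 0.10. Signals near the filter, as for Gbp2 and Gbp3 with LIF, limit how far a fold can be read.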
